A study of Mus musculus with 61 samples.

Results

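The 7 genes Hmgcs1, Mvd, Idi1, Fdft1, Sqle, Lss and Insig1 of sterol synthesis were described here, out of 15149 genes measured by RNA-seq in sorted mouse retinal cells. They were chosen by name as a pathway: the first 6 encode enzymes and Insig1 encodes a regulator. All 7 had reads in all 61 libraries. The study compared DBA/2J mice, an inbred strain that develops an inherited glaucoma with age, with D2-Gpnmb+ mice, the control strain of the same background that carries a working Gpnmb gene. In all, 10 libraries came from DBA/2J and 10 from D2-Gpnmb+ mice aged 4 months, 25 from DBA/2J and 9 from D2-Gpnmb+ mice aged 9 months, all labelled as water controls. A further 7 came from 9-month DBA/2J mice given nicotinamide at 500 mg per kg per day. All retinas came from eyes with no axon degeneration on nerve staining, so the 9-month groups describe a stage before nerve damage was visible.

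Cells make cholesterol from acetyl-CoA through mevalonate, isoprenoids, squalene and lanosterol. When sterols in the endoplasmic reticulum are low, the sensor SCAP carries the transcription factor SREBP2 to the Golgi, where it is cut and released to switch on nearly all enzymes of the pathway, while INSIG proteins hold SCAP back when sterols are plentiful. The blood-retina barrier limits supply from blood, and within nervous tissue glia are known as strong cholesterol makers that supply neurons through lipoproteins.

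Hmgcs1 makes HMG-CoA at the entry to the pathway, and it lies on chromosome 13 of mm10 at 119690379-119708260. Mvd, the last step of the mevalonate stage, lies on chromosome 8 at 122433601-122443422. Idi1, which makes the second isoprenoid building block, lies on chromosome 13 at 8885501-8892451. Fdft1 (squalene synthase) lies on chromosome 14 at 63145150-63179578. Sqle (squalene epoxidase, a rate-limiting step) lies on chromosome 15 at 59315077-59331192, and Lss (lanosterol synthase) on chromosome 10 at 76531588-76557138. Insig1, itself a target of SREBP2 and so a common readout of its activity, lies on chromosome 5 at 28071363-28078662. Exons of Fdft1 overlap those of Ctsb on the other strand over 774 bases. Exons of Hmgcs1, Lss and Idi1 overlap a non-coding transcript on the other strand over 557, 381 and 323 bases. Whether reads were counted by strand was not given in the sources used here, so reads from these stretches cannot be told apart.

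The sequences before the start sites of 3 members are shown because SREBP2 acts there with the factors NF-Y and Sp1. Capitals mark TCACNCCAC (a form of the sterol regulatory element), CCAAT (the NF-Y box) and GGGCGG (the GC box of Sp1), on either strand. The windows come from RefSeq on GRCm38.p6, plus strand for all 3, and end before the first annotated transcript. They lie at chr13:119690101-119690350 for Hmgcs1, chr5:28071162-28071362 for Insig1 and chr10:76531355-76531587 for Lss.
Hmgcs1: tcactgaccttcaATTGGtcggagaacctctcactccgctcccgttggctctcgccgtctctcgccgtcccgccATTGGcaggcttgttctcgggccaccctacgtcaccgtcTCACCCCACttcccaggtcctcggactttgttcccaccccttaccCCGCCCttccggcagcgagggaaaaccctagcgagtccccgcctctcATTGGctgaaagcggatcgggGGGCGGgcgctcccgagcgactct
Insig1: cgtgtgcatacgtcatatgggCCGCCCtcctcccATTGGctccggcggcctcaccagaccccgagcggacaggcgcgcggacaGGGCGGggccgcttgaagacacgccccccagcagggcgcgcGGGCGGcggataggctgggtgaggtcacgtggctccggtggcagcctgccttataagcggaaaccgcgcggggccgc
Lss: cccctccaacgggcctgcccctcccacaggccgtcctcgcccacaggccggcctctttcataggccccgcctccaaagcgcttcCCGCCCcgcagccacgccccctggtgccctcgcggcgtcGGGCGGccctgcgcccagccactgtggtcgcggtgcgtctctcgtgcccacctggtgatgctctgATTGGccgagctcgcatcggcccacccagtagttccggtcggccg

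Motifs were counted in the full 250 bases before the RefSeq start, which can reach into a GENCODE transcript. Windows of 250 bases were at hand for 5 members, namely Hmgcs1, Mvd, Idi1, Lss and Insig1. The sterol element was found in 1 of the 5, in Hmgcs1 at 137 to 129 bases before the start, against 1.05% of 32851 windows genome-wide. CCAAT was found in 5 of 5 against 33.8% of all windows, and GGGCGG in 5 of 5 against 32.7%. For Idi1 all of these matches, at 69 bases or less before the RefSeq start, lie inside the GENCODE transcript. Among 13 other enzymes of the pathway with a window, 0 held this form of the sterol element, 12 held CCAAT and 11 held GGGCGG. A match is a description of letters, and a window without one shows only that these letters are not there.

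Sequencing depth, as recovered reads per library, ran from 5133114 to 19501444 (median 9730486). Levels are given as normalised read counts, the deposited values. The 61 columns of the table fall into 3 stretches of neighbouring columns: stretch 1 holds 6 DBA/2J and 4 D2-Gpnmb+ libraries of 9 months, stretch 2 holds 16 and 2, and stretch 3 holds 3 and 3 together with all 4-month and all nicotinamide libraries. The labels do not say what the stretches are, so each comparison was also run within them. Gpnmb ran from 3.69 to 14.5 in 4-month DBA/2J and from 34.7 to 130 in 4-month D2-Gpnmb+ libraries; at 9 months the strains overlapped (8.39 to 78.3 and 11.9 to 83.5). The sort kept Thy1.2-positive cells, labelled retinal ganglion cells. Of 7 listed markers of these cells, Pou4f1 and Slc17a6 were at 0 in 21 and 24 of 61 libraries. Nefm and Sncg were at 0 in 7 each, Nefl in 1, and Thy1 and Rbpms in 0. Per kilobase of exon the median level was 7.99 for Thy1 and 324 for Glul of Müller glia, so the libraries held much RNA of other retinal cells. In such bulk samples fewer cells of a type and less RNA per cell cannot be told apart.

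Per kilobase of exon, Insig1 (10.9 ± 5.33, SD, n = 61) and Hmgcs1 (9.88 ± 3.16) had the highest levels of the 7, and Lss (2.09 ± 0.499) and Mvd (1.74 ± 0.974) the lowest. Fdft1 (7.29 ± 2.19), Sqle (4.85 ± 1.97) and Idi1 (4.15 ± 1.57) lay between. Hmgcs1 was above Fdft1 in 57 of 61 libraries, Fdft1 above Sqle in 54, Sqle above Idi1 in 44, and Idi1 above Lss in 57. Insig1 exceeded Hmgcs1 in 32 libraries and Lss exceeded Mvd in 40, so neither of these neighbours was set apart beyond the spread. The divisor is the union of all annotated exons, 10787 bases for Lss against 5546 for Sqle and 3505 for Idi1. Undivided, mean Lss (22.5) was above mean Idi1 (14.5), so the low rank of Lss depends on that length. Across all libraries Lss varied least, with a coefficient of variation of 23.9%, and Mvd most, at 56.0%. Mvd rests on few reads, from 4 to 136 per library, whereas Hmgcs1 had 127 to 1231.

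**Figure D1:**
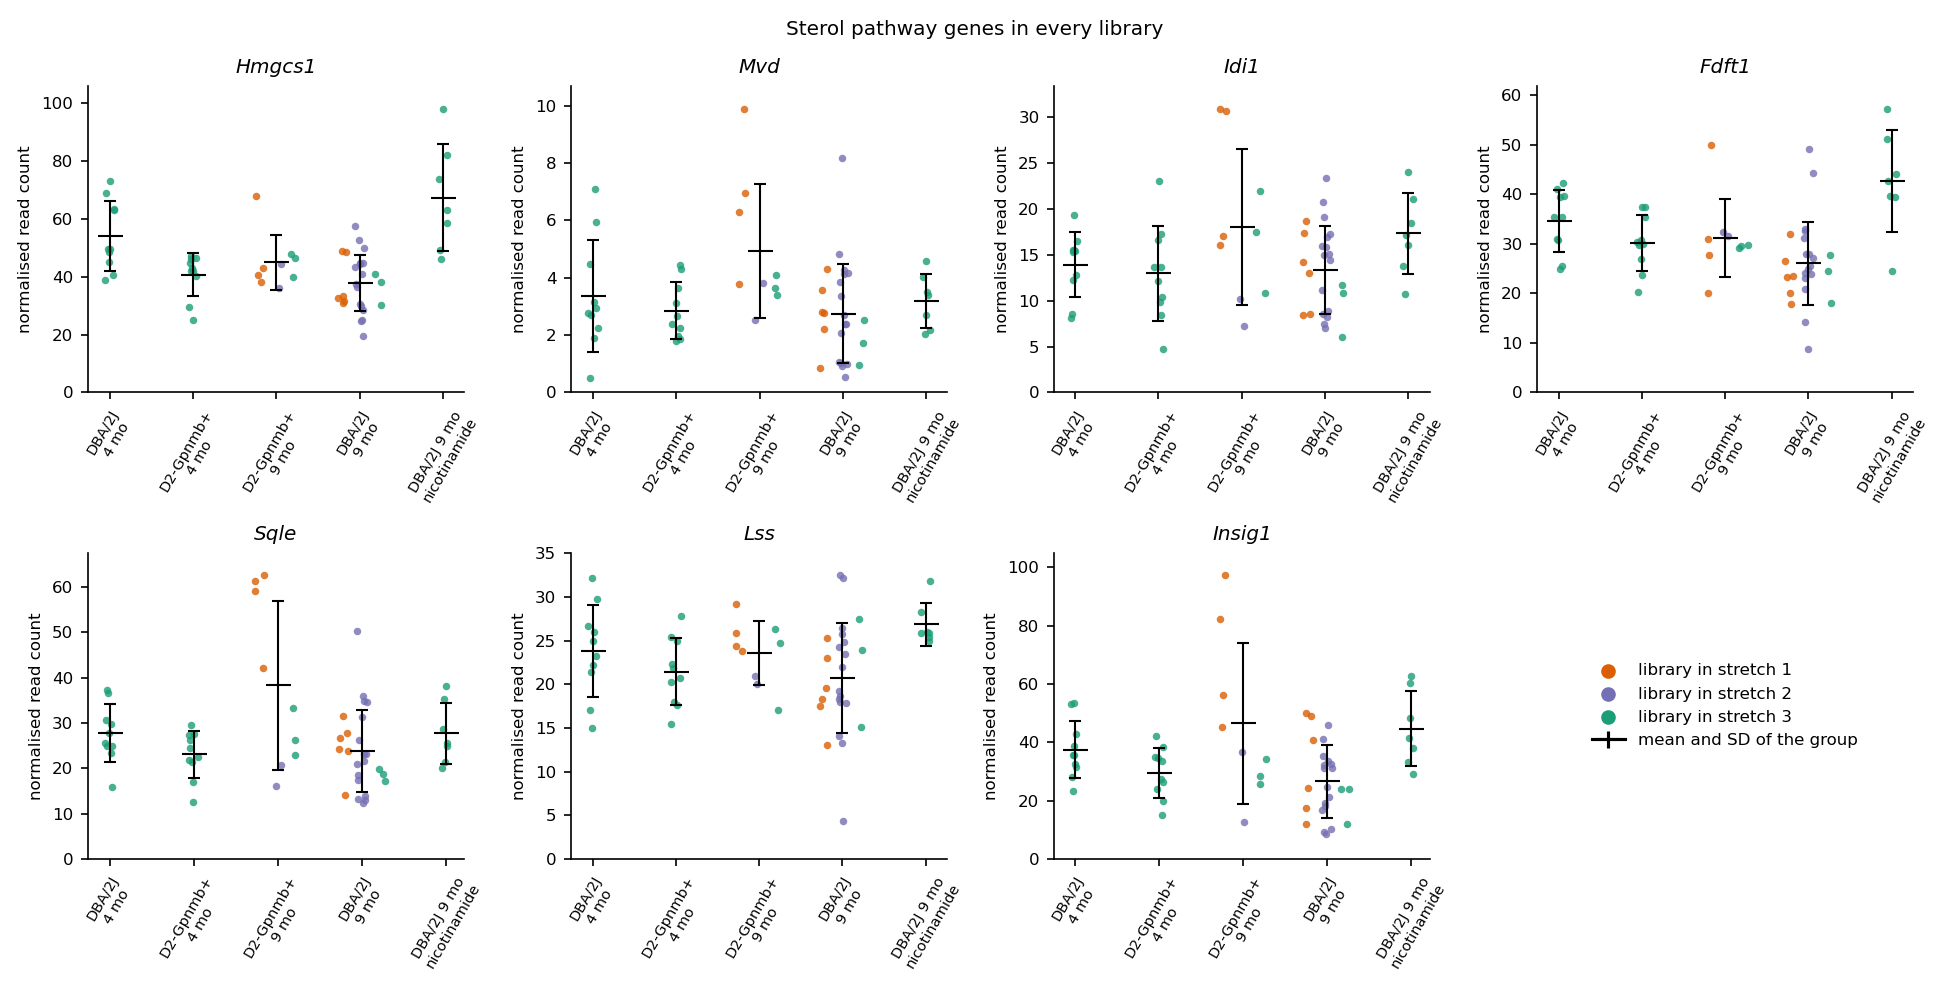
Normalised read count (y axis, from 0) of each gene in each of 61 libraries by group (x axis), coloured by stretch of columns, with the group mean and SD in black. Hmgcs1 and Fdft1 are highest in the nicotinamide group, and Sqle and Insig1 are highest in the stretch 1 libraries of 9-month D2-Gpnmb+ mice.

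Nicotinamide, a precursor of NAD, was compared with water in 9-month DBA/2J mice. Hmgcs1, Fdft1 and Insig1 were higher with nicotinamide, and the other 4 members had estimates above 0 that did not pass the test. Hmgcs1 ran from 46.3 to 98.1 with a median of 63.0 in the 7 nicotinamide libraries, and from 19.6 to 57.6 with a median of 37.3 in the 25 water libraries. Of the 7 nicotinamide libraries, 5 lay above every water library, and 20 of the 25 water libraries lay below every nicotinamide library. The log2 fold change of Hmgcs1 was 0.81 ± 0.16 (SE; limma, adjusted p = 0.00087). Of the 13925 genes tested, 15.1% passed in either direction and 9.78% passed as higher, against 3 of 7 members.

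At the squalene step, Fdft1 ran from 24.5 to 57.3 (median 42.7) with nicotinamide and from 8.76 to 49.0 (median 25) with water. In all, 2 nicotinamide libraries lay above every water library, and 1, library 8, lay below the water median. The log2 fold change of Fdft1 was 0.72 ± 0.19 (limma, adjusted p = 0.0090). Ctsb, which overlaps it, went the other way, with a log2 fold change of -0.40 ± 0.14 (limma, adjusted p = 0.049). Insig1, the regulator, ran from 29.0 to 62.5 (median 41.5) against 8.52 to 49.9 (median 24.4), and all 7 nicotinamide libraries were above the water median. Its log2 fold change was 0.84 ± 0.27 (limma, adjusted p = 0.032). The call of Insig1 was lost when nicotinamide library 2, 3, 4, 5 or 7 was left out, with adjusted p between 0.0506 and 0.0907, and with values scaled to total reads (limma, adjusted p = 0.055; 11.5% of genes passed).

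The 4 members that did not pass were 2 early and 2 late enzymes. Log2 fold changes were 0.27 ± 0.26 for Mvd, 0.40 ± 0.20 for Idi1, 0.26 ± 0.20 for Sqle and 0.43 ± 0.20 for Lss (limma, adjusted p from 0.13 to 0.50). Lss was narrow in the nicotinamide group, from 24.95 to 31.9, and all 7 libraries lay above the water median of 19.6. The median of the 7 members was 0.43 on the log2 scale, beside -0.03 over all genes tested.

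All 7 nicotinamide libraries lie in stretch 3, with only 3 of the water libraries, so the pooled difference and the stretch cannot be told apart. Those 3 water libraries also enter the age, strain and interaction estimates within stretch 3, so the signs of these estimates are not independent. Library 26, 1 of the 3, had the lowest depth of all libraries (5133114 reads). It was the lowest of the 3 for every member but Lss. Within stretch 3, Hmgcs1 was 30.2, 38.3 and 40.9 in the water libraries and 46.3, 49.3, 58.6, 63.0, 73.8, 82.2 and 98.1 with nicotinamide. The groups did not overlap for Hmgcs1, Sqle or Insig1, which 2.91% of the 13352 genes tested also showed as higher. Insig1 was 11.8, 23.8 and 23.9 with water and 29.0, 33.1, 37.9, 41.5, 48.5, 60.4 and 62.5 with nicotinamide. Sqle was 17.3, 18.7 and 19.9 with water and 20.1 to 38.1 with nicotinamide, and its groups were separated by a narrow gap. Every member was estimated higher with nicotinamide there, and none passed the test. The log2 fold changes were 0.83 ± 0.21 for Hmgcs1, 0.62 ± 0.25 for Mvd, 0.81 ± 0.23 for Idi1, 0.82 ± 0.21 for Fdft1, 0.52 ± 0.18 for Sqle, 0.30 ± 0.16 for Lss and 1.15 ± 0.27 for Insig1 (limma, adjusted p from 0.099 to 0.36). In this small comparison 1 of 13352 genes (0.00749%) passed, while 2242 had an unadjusted p under 0.05. Hmgcs1 (adjusted p = 0.043) and Fdft1 (adjusted p = 0.027) passed in limma when nicotinamide library 8, the lowest for both, was left out, and Insig1 (adjusted p = 0.047) passed without water library 27.

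Cell markers moved with this comparison too. Within stretch 3, the summed level of 8 Müller glia markers ran from 255 to 1375 with water and from 1044.6 to 2492 with nicotinamide, that of 8 amacrine and horizontal cell markers from 114 to 315 and from 152 to 1002.5, and that of 7 ganglion cell markers from 37.1 to 47.7 and from 41.9 to 125. All 8 Müller and all 8 amacrine and horizontal markers had estimates above 0, and none of the 16 passed. Over all libraries, 7 of 7 amacrine and horizontal markers tested were higher and 3 of 8 Müller markers lower with nicotinamide, and 5 of 6 cone markers were higher and 3 of 6 microglia markers lower. Within stretch 3 all 7 rod and all 6 cone markers had estimates above 0, with medians of 0.59 and 0.61. Median estimates of Müller (-1.14 and 1.11) and rod markers (-0.26 and 0.59) thus had opposite signs in the pooled and the within-stretch comparison. The estimates of all 7 members were above 0 in both. So were the medians of amacrine and horizontal (2.86 and 1.38), cone (1.10 and 0.61) and ganglion cell markers (0.57 and 0.49). Bipolar markers had medians below 0 in both (-0.22 and -0.34). The part of cell makeup in the members' differences was not tested.

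**Figure D2:**
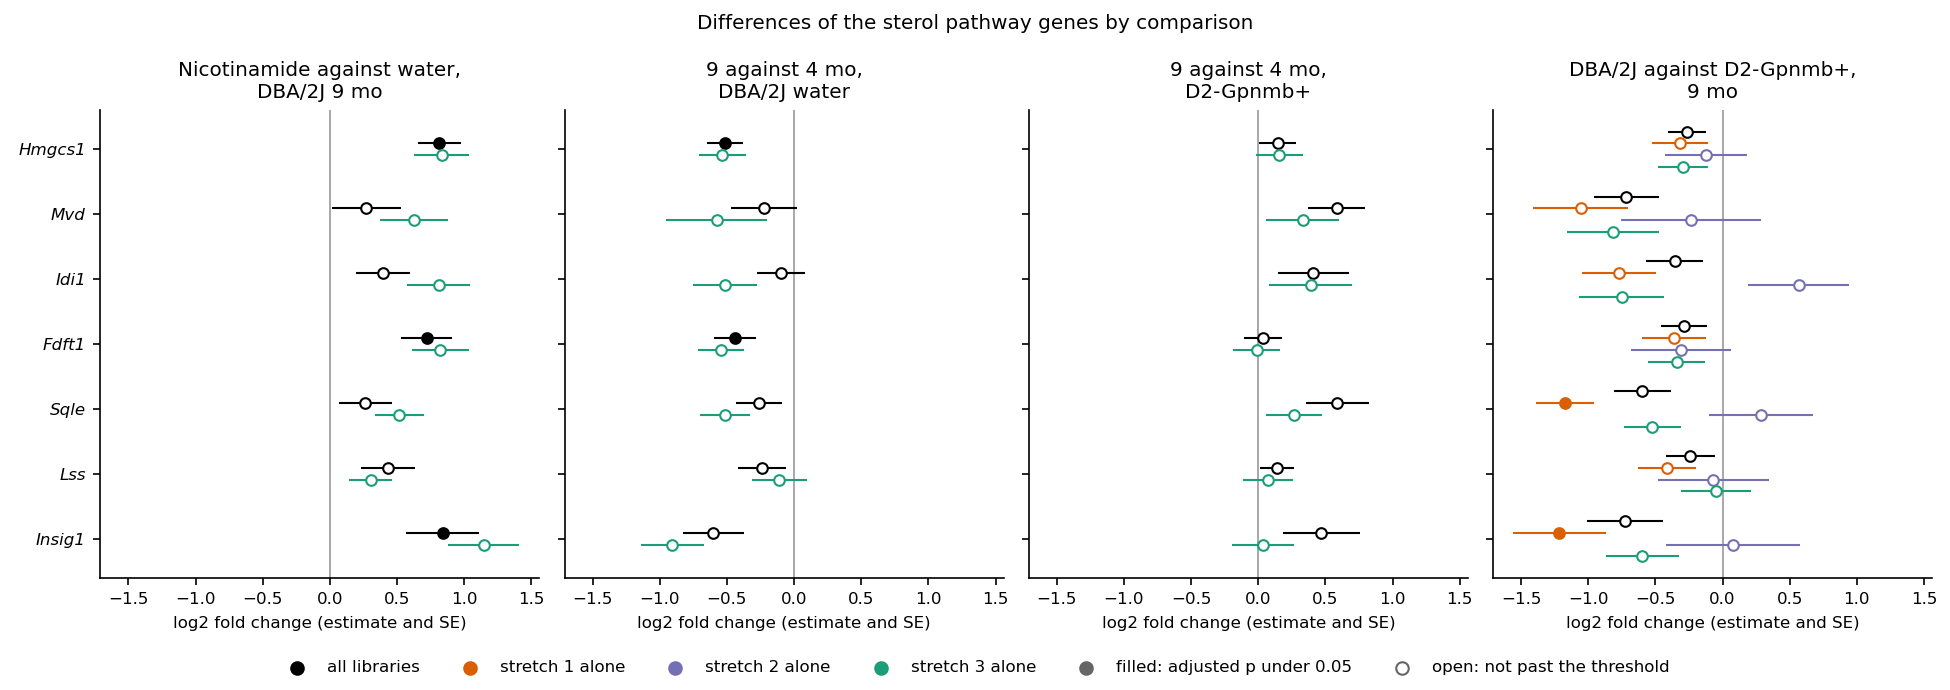
Log2 fold change (x axis; estimate and SE) of each gene in 4 comparisons, over all libraries (black) and within stretches of columns (colours); filled points passed an adjusted p of 0.05. All 7 genes are above 0 for nicotinamide and below 0 for age in DBA/2J, pooled and in stretch 3, and stretch 2 departs from the others for strain.

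Age was compared in DBA/2J mice given water, 9 against 4 months. All 10 younger libraries lie in stretch 3 with only 3 of the 25 older ones, so the pooled difference and the stretch cannot be told apart. Hmgcs1 and Fdft1 were lower at 9 months, and the other 5 members had estimates below 0 that did not pass. Hmgcs1 ran from 38.9 to 73.1 with a median of 49.5 in the 10 libraries of 4 months, against the 19.6 to 57.6 given above. Of the 25 older libraries, 14 lay below every younger one, and 4 of the 10 younger ones lay above every older one. The log2 fold change was -0.52 ± 0.13 (limma, adjusted p = 0.0056). Fdft1 ran from 24.9 to 42.2 (median 35.4) at 4 months, and 12 of the 25 older libraries lay below that range and 2 above it. Its log2 fold change was -0.44 ± 0.16 (limma, adjusted p = 0.039). Of the 13587 genes tested 22.4% passed, 13.2% as lower, beside 2 of 7 members; with 7 genes these shares are not far apart. Ctsb, which overlaps Fdft1, was higher at 9 months, with a log2 fold change of 0.59 ± 0.12 (limma, adjusted p = 0.00097).

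Insig1 lay close to the threshold, on either side of it by setting. It ran from 23.4 to 53.4 (median 35.6) at 4 months, 10 of the 25 older libraries lay below that range, and its log2 fold change was -0.60 ± 0.23 (limma, adjusted p = 0.053). It passed with all 5 groups in 1 fit (limma, adjusted p = 0.046; 25.9% of genes passed) and when 9-month library 1, 2, 6, 7, 9, 20, 21 or 23 or 4-month library 5 was left out (adjusted p from 0.035 to 0.049). Fdft1 lost its call when 4-month library 1, 2, 3, 4, 6 or 9 was left out (adjusted p from 0.059 to 0.079), and with values scaled to total reads (limma, adjusted p = 0.085; 17.3% of genes passed). Mvd (-0.22 ± 0.24), Idi1 (-0.10 ± 0.18), Sqle (-0.26 ± 0.17) and Lss (-0.24 ± 0.18) did not pass (limma, adjusted p from 0.27 to 0.72).

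Within stretch 3, which holds all 10 younger but only 3 older libraries, every member was again estimated lower at 9 months and none passed. Log2 fold changes were -0.53 ± 0.18 for Hmgcs1, -0.58 ± 0.38 for Mvd, -0.51 ± 0.24 for Idi1, -0.54 ± 0.17 for Fdft1, -0.51 ± 0.19 for Sqle, -0.11 ± 0.21 for Lss and -0.91 ± 0.23 for Insig1 (limma, adjusted p from 0.12 to 0.90). The estimates of Hmgcs1 and Fdft1 were as large as over all libraries. There 36 of 13670 genes (0.263%) passed. The Müller sum ran from 255 to 1375 in these 3 libraries and from 1215 to 4229 at 4 months, and the amacrine and horizontal sum from 114 to 315 and from 82.6 to 998. All 8 Müller markers had estimates below 0 within stretch 3 but 7 of 8 above 0 over all libraries, where 2 passed as higher. Over all libraries 6 of 7 amacrine and horizontal markers tested were lower at 9 months, with a median of -2.61 on the log2 scale. All 6 of 6 microglia markers tested were also higher at 9 months over all libraries. They were high enough to be tested only through stretch 2, so this direction was set in advance. Their sum was 4.76 to 144 in stretch 2, 0.844 to 1.55 in the 3 older libraries of stretch 3 and 0.186 to 2.01 at 4 months. The part of these cells in the members' differences was not tested.

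The nicotinamide and the age comparisons share the 9-month water libraries of DBA/2J, so opposite signs in them are not independent. Nicotinamide at 9 months was also set against 4-month water libraries of the same strain, all of them in stretch 3. These groups differ in both treatment and age, and the 2 cannot be told apart. None of the 7 members passed, against 1.54% of 13024 genes. The estimates ran from 0.00 ± 0.15 for Sqle to 0.30 ± 0.15 for Hmgcs1 and 0.30 ± 0.17 for Idi1 (limma, adjusted p from 0.36 to 0.996). Mean Hmgcs1 was 67.3 ± 18.6 (SD, n = 7) with nicotinamide and 54.0 ± 12.1 (n = 10) at 4 months, and mean Insig1 was 44.7 ± 13 and 37.5 ± 9.90. Sqle was 27.7 ± 6.79 and 27.7 ± 6.38. The groups overlapped for each of these 3 genes.

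In D2-Gpnmb+ mice, age gave no member past the threshold, against 0.0232% of 12910 genes. Estimates over all libraries were above 0 for all 7, from 0.04 ± 0.14 for Fdft1 to 0.58 ± 0.22 for Mvd and 0.59 ± 0.24 for Sqle (limma, adjusted p from 0.095 to 0.88). Sqle passed when 9-month library 9 was left out (limma, adjusted p = 0.049), and Mvd and Sqle passed in DESeq2 (adjusted p = 0.046 and 0.030; 16.4% of genes passed). Sqle was 16.02 to 62.6 (median 33.3) at 9 months and 12.6 to 29.5 (median 23.5) at 4 months. The 4 libraries of stretch 1, at 42.2 to 62.6, held the highest values. Within stretch 3 the estimate of Sqle was 0.26 ± 0.21 and that of Insig1 was 0.04 ± 0.23, against 0.47 ± 0.29 over all libraries. Fdft1 was at -0.012 ± 0.17, and 0 of 13689 genes passed there in limma, with 640 at an unadjusted p under 0.05.

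The difference of the age effects between the strains was tested directly as an interaction. All 7 estimates were below 0, that is, more negative with age in DBA/2J, and none passed, against 0.375% of 14150 genes. Insig1 (-1.07 ± 0.38), Sqle (-0.85 ± 0.29), Mvd (-0.81 ± 0.35) and Hmgcs1 (-0.66 ± 0.20) had the largest estimates (limma, adjusted p from 0.097 to 0.30). Within stretch 3 they were -0.94 ± 0.35, -0.78 ± 0.29, -0.91 ± 0.46 and -0.69 ± 0.25 (limma, adjusted p from 0.42 to 0.62; 0.0774% of genes passed). Hmgcs1 passed with values scaled to total reads (limma, adjusted p = 0.045; 1.52% of genes passed), which shifted the all-gene median in this comparison from -0.04 to -0.36.

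Strain at 9 months gave no member past the threshold over all libraries, against 0.0218% of 13755 genes. With all 5 groups in 1 fit, where 4.70% of genes passed, Mvd and Sqle passed as lower in DBA/2J (limma, adjusted p = 0.046 and 0.043). In stretch 1, Sqle and Insig1 were lower in DBA/2J. Sqle was 14.2, 23.8, 24.3, 26.7, 27.8 and 31.5 in DBA/2J and 42.2, 59.0, 61.3 and 62.6 in D2-Gpnmb+. The groups did not overlap, as for 6.54% of 13451 genes, and the log2 fold change was -1.18 ± 0.22 (limma, adjusted p = 0.00090). Insig1 was 11.8, 17.5, 24.4, 40.8, 48.9 and 49.9 in DBA/2J and 45.1, 56.1, 82.2 and 97.3 in D2-Gpnmb+. Its groups overlapped, and the log2 fold change was -1.21 ± 0.34 (limma, adjusted p = 0.026). Here 12.3% of genes passed, 7.69% as lower, against 2 of 7 members.

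All 7 members had estimates below 0 in stretch 1. Mvd (-1.06 ± 0.36; limma, adjusted p = 0.056) and Idi1 (-0.77 ± 0.28; limma, adjusted p = 0.072) came closest to passing, and Hmgcs1 (-0.32 ± 0.21), Fdft1 (-0.36 ± 0.24) and Lss (-0.42 ± 0.22) were smaller. Sqle passed whichever of the 10 libraries was left out. Insig1 lost its call without DBA/2J library 3 or 5 or D2-Gpnmb+ library 4 or 6 (limma, adjusted p from 0.052 to 0.091), and Mvd passed without DBA/2J library 1 (adjusted p = 0.046) or D2-Gpnmb+ library 1 (adjusted p = 0.048). Müller markers were lower in DBA/2J here too, 8 of 8 past the test, with sums of 3478 to 7584 against 10355 to 14867. Rod markers (6 of 7) and cone markers (6 of 6) were higher. In stretches 1, 2 and 3, mean Sqle was 24.7, 24.4 and 18.6 in DBA/2J and 56.3, 18.4 and 27.5 in D2-Gpnmb+. Mean Insig1 was 32.2, 25.7 and 19.9 in DBA/2J and 70.2, 24.7 and 29.4 in D2-Gpnmb+. The part of these cells in the strain differences of Sqle and Insig1 was not tested.

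In the other stretches the strain difference was not called. In stretch 2, with 16 against 2 libraries, Idi1 (0.57 ± 0.38), Sqle (0.29 ± 0.39) and Insig1 (0.08 ± 0.50) had estimates above 0, and 0 of 14549 genes passed in limma, with 788 at an unadjusted p under 0.05. In stretch 3, with 3 against 3, all 7 were below 0, from -0.05 ± 0.26 for Lss to -0.82 ± 0.34 for Mvd (limma, adjusted p from 0.77 to 0.99). Mvd was 0.97, 1.72 and 2.53 in DBA/2J and 3.39, 3.62 and 4.09 in D2-Gpnmb+, without overlap, as 5.52% of 12941 genes showed as lower. Fdft1, Sqle and Insig1 did not overlap either, and 0 of the 12941 genes passed in limma, with 823 at an unadjusted p under 0.05.

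The strains were also compared at 4 months. None of the 7 members passed, against 0.250% of 12804 genes, and all estimates were above 0, from 0.09 ± 0.23 for Mvd to 0.40 ± 0.13 for Hmgcs1 (limma, adjusted p from 0.16 to 0.91). Hmgcs1 was 54.0 ± 12.1 in DBA/2J and 40.6 ± 7.43 in D2-Gpnmb+ (SD, n = 10 each), and 7 of the 10 DBA/2J libraries lay above every D2-Gpnmb+ library. With values scaled to total reads the all-gene median here shifted from 0.01 to 0.24.

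Nicotinamide-treated DBA/2J mice were also set against 9-month D2-Gpnmb+ mice. These groups differ in both strain and treatment, and the 2 cannot be told apart. All 7 nicotinamide libraries lie in stretch 3 with only 3 of the 9 D2-Gpnmb+ libraries, so the pooled difference is also mixed with the stretch. No member passed, and 0 of 13054 genes passed in limma (0.00%), with 3838 at an unadjusted p under 0.05, 1067 (8.17%) called by edgeR and 2083 (16%) by DESeq2. Hmgcs1 had the largest estimate over all libraries, 0.55 ± 0.16 (limma, adjusted p = 0.083), and passed in edgeR (adjusted p = 0.042), in DESeq2 (adjusted p = 0.013) and in limma without D2-Gpnmb+ library 13 (adjusted p = 0.044). Mvd (-0.44 ± 0.23) and Sqle (-0.33 ± 0.27) had estimates below 0, and Idi1 was at 0.04 ± 0.26. Insig1 was at 0.12 ± 0.33 over all libraries and at 0.55 ± 0.21 within stretch 3 (limma, adjusted p = 0.22). Within stretch 3, Hmgcs1 was 0.54 ± 0.20 and Fdft1 0.48 ± 0.19, where 0.299% of genes passed, and Fdft1 passed without nicotinamide library 8 (limma, adjusted p = 0.031).

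Other genes of the pathway were followed from lists. Of 16 other sterol enzymes, 2 were higher and 1 lower with nicotinamide over all libraries, with a median log2 fold change of 0.21. These 3 of 16 are near the 15.1% of all genes that passed. The 2 were Cyp51 (0.52 ± 0.15; limma, adjusted p = 0.018), which removes a methyl group from lanosterol, and Hsd17b7 (0.59 ± 0.21; limma, adjusted p = 0.047), a later reductase. Dhcr7, which makes the final product of one branch, was lower (-0.50 ± 0.17; limma, adjusted p = 0.037). Within stretch 3, 12 of the 16 had estimates above 0, with a median of 0.29 beside 0.81 for the members and 0.01 for all genes, and none passed.

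Among regulators (8 tested), uptake genes (7) and efflux genes (9), none was higher with nicotinamide over all libraries, and 1, 3 and 2 were lower, beside 5.34% of all genes. Srebf1, the SREBP gene known mostly for fatty acid synthesis, was lower with nicotinamide over all libraries (-0.68 ± 0.23; limma, adjusted p = 0.038) but at -0.05 ± 0.15 within stretch 3. Srebf2, which encodes SREBP2, was at -0.11 ± 0.23 and 0.63 ± 0.20, and did not pass in either. Apoe, which encodes apolipoprotein E, a protein part of lipoproteins, was lower over all libraries (-1.44 ± 0.45; limma, adjusted p = 0.028). It had an estimate of 1.12 ± 0.48 within stretch 3 (limma, adjusted p = 0.27). Cyp27a1, which turns cholesterol into an oxysterol, likewise went from -1.45 ± 0.45 (limma, adjusted p = 0.027) to 1.10 ± 0.32 (limma, adjusted p = 0.13). The uptake genes were Lrp1, Npc2 and Scarb1, with estimates of -0.90, -0.76 and -0.56, and 0.20, 0.27 and 0.12 within stretch 3. The signs of these 5 lipid genes differed between the settings; Apoe is also 1 of the 8 Müller markers.

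With age in DBA/2J, where 9.25% of all genes passed as higher and 13.2% as lower, 1 of 16 other enzymes passed, Ggps1 of the isoprenoid branch (-0.34 ± 0.10; limma, adjusted p = 0.017), and 12 of 16 had estimates below 0 both over all libraries and within stretch 3. Of 8 regulators, 3 were higher over all libraries: Srebf1 (0.74 ± 0.19), Scap (0.48 ± 0.12), the sterol sensor, and Mbtps1 (0.41 ± 0.11), the protease that first cuts SREBPs (limma, adjusted p from 0.0036 to 0.0055). Within stretch 3 they were at 0.11 ± 0.15, 0.11 ± 0.14 and 0.11 ± 0.13 and did not pass. Uptake genes Npc2 (0.66 ± 0.18), Scarb1 (0.57 ± 0.16) and Lrp1 (0.71 ± 0.21) were higher over all libraries and at -0.37, -0.10 and -0.39 within stretch 3. Of 9 genes of efflux and turnover, 2 were higher, Apoe (1.27 ± 0.39) and Cyp27a1 (1.48 ± 0.39), and Cyp46a1, the neuronal enzyme that clears cholesterol from brain, was lower (-0.67 ± 0.21; limma, adjusted p = 0.020). Cyp46a1 was at -0.68 ± 0.26 within stretch 3, whereas Apoe was at -1.30 ± 0.53. Of 11 genes of fatty acid synthesis, Elovl6 (-0.89 ± 0.18) was lower and Acaca (0.46 ± 0.10) and Fads2 (0.86 ± 0.32) higher over all libraries. Within stretch 3 they were at -0.10 ± 0.14, 0.21 ± 0.12 and -1.12 ± 0.32, and none passed. Elovl6 and Acaca went the other way with nicotinamide over all libraries (0.86 ± 0.21 and -0.42 ± 0.12, but 0.08 ± 0.13 and -0.16 ± 0.14 within stretch 3), a comparison that shares the 9-month water libraries, and Acly was higher over all libraries (0.44 ± 0.15; limma, adjusted p = 0.042) and at -0.00 ± 0.11 within stretch 3.

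In stretch 1, the strain comparison at 9 months called lower in DBA/2J 1 of 16 other enzymes, 2 of 8 regulators, 2 of 7 uptake genes, 2 of 9 efflux genes and 5 of 11 fatty acid genes, and 1 fatty acid gene higher. Of all genes there 7.69% passed as lower, so the 1 of 16 enzymes is near that share. The lower ones included Fads1 (-1.24 ± 0.20), Elovl5 (-1.14 ± 0.19) and Fads2 (-0.97 ± 0.19) of fatty acid synthesis, and Srebf2 (-0.99 ± 0.18). Me1, which supplies NADPH, was higher (1.15 ± 0.28). In stretches 2 and 3, where 0 of all genes passed, the lowest regulator estimates were -0.15 and -0.33. Of the 11 fatty acid genes, 7 had estimates above 0 in stretch 2 (median 0.20) and 3 in stretch 3 (median -0.28). All 8 Müller markers were lower in stretch 1 too, and the part of these cells in the list differences was not tested.

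**Figure D3:**
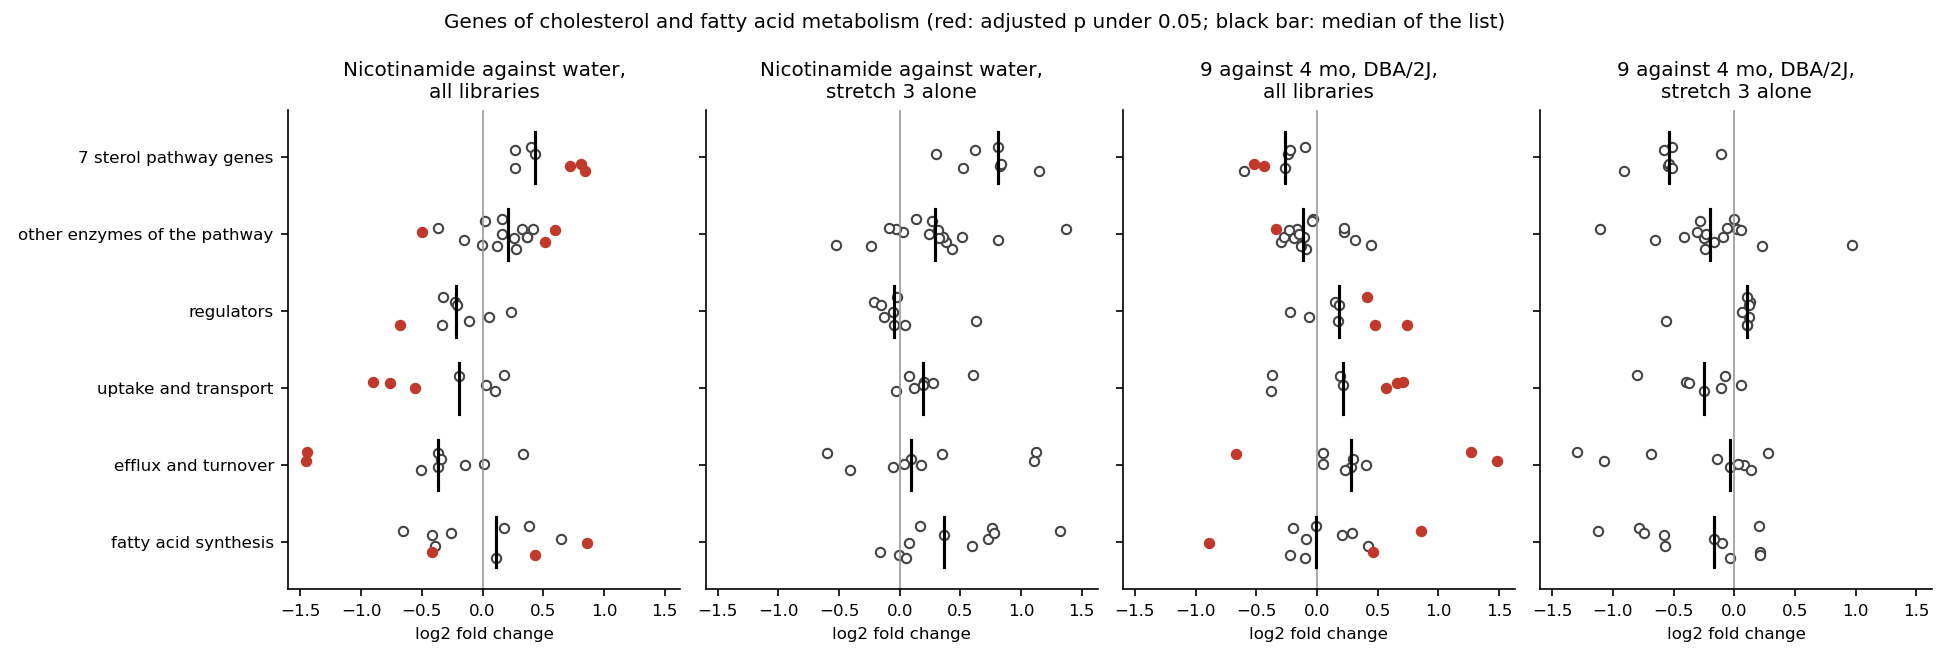
Log2 fold change (x axis) of genes in 6 lists (rows) for nicotinamide and for age in DBA/2J, over all libraries and within stretch 3; red points passed an adjusted p of 0.05 and black bars are list medians. The medians of the 7 sterol pathway genes are 0.43 and 0.81 for nicotinamide and -0.26 and -0.53 for age, while those of uptake and efflux genes change sign between the settings.

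Some of the members also varied together among libraries of the same group. After the mean of each group and stretch was removed from log2 values, 17 of 21 pairs of members had a Pearson correlation above 0 over 61 libraries, with a median of 0.28. The share among pairs of other genes was not measured. Mvd was near 0 with Idi1 (r = -0.03) and with Sqle (r = 0.03). The tightest pair was Hmgcs1 and Fdft1 (r = 0.61, Spearman's rho = 0.68; permutation test within groups, each p = 0.0001, the smallest 10000 permutations can give, and adjusted over 21 pairs 0.0007 and 0.0005). It was 0.59 without the 2 farthest libraries, 0.80 in stretch 3 and 0.51 in the others. Hmgcs1 and Insig1 followed (r = 0.58, rho = 0.64; permutation test, adjusted p = 0.0007 and 0.0005), then Idi1 and Sqle (r = 0.53, rho = 0.57; permutation test, adjusted p = 0.0007 and 0.0005). Lss did not vary with the rest: its r with Hmgcs1 was 0.17 (rho = 0.17; permutation test, adjusted p = 0.36 and 0.31). With Sqle it was -0.42 (rho = -0.19; permutation test, adjusted p = 0.015 and 0.26), and -0.20 without the 2 farthest libraries, so that relation rests on those libraries. In the nicotinamide group, library 7 was highest for 6 of the 7 members, all but Mvd, and library 8 was lowest for Hmgcs1, Idi1 and Fdft1.

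**Figure D4:**
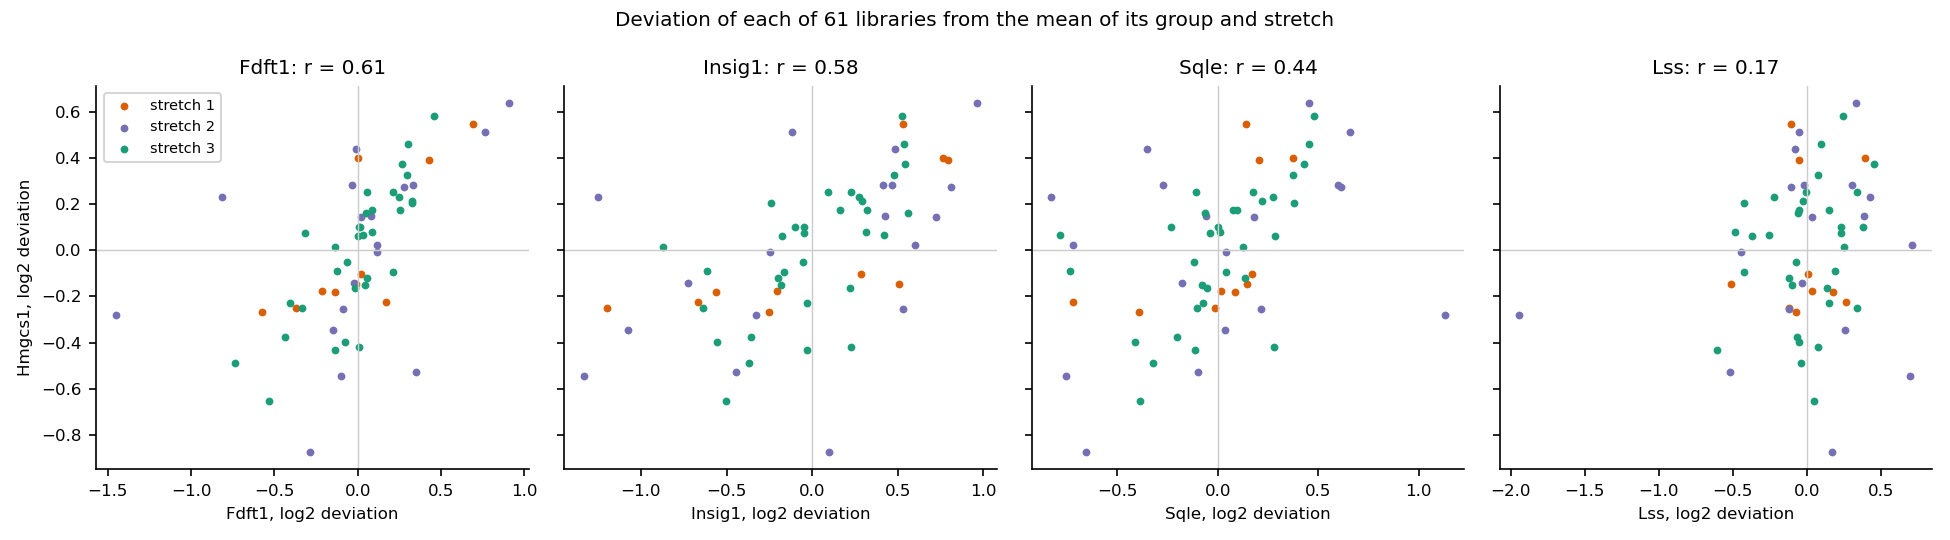
Deviation of each library from the mean of its group and stretch, on the log2 scale, for Hmgcs1 (y axis) against Fdft1, Insig1, Sqle and Lss (x axes), coloured by stretch. Points follow a rising diagonal for Fdft1 (r = 0.61) and Insig1 (r = 0.58), less for Sqle (r = 0.44), and hardly for Lss (r = 0.17).

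The 5 other genes whose deviations were most like the mean of the 7 members, out of 14474, were Cdk14 (r = 0.76), Map1a (0.75), Pak1 (0.74), Cnksr2 (0.72) and Sez6l (0.71), as a description over 61 libraries. The middle 90% of those genes lay between -0.31 and 0.37. Of the pathway, Sc4mol, a sterol demethylation enzyme, ranked 7th, with an r of 0.70. The same mean had an r of 0.66 with the summed ganglion cell markers (rho = 0.61) and of 0.60 with the amacrine and horizontal sum (rho = 0.55). It had an r of 0.32 with the Müller sum (rho = 0.32) and of -0.46 with the bipolar sum (rho = -0.45). In stretch 3 these were 0.72, 0.73, 0.07 and -0.36, and in the others 0.61, 0.50, 0.57 and -0.54. All of these values come from the same libraries and share their depth and cell makeup, and the part of cell makeup in the covariation was not tested.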

How the data were processed

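RNA-seq of sorted retinal cells was deposited as 1 table of 15171 rows and 61 libraries; 22 rows whose names had turned into dates were left out. The submitters' processing notes name TopHat2 2.0.7, Bowtie2 2.0.6, HTSeq and the build mm10. The deposited values are a normalised signal: each is a whole number of reads times a factor of its library, and all values under 1000 reads came out whole (100%, within 0.05 of a read). Columns name a group but not a sample of the labels, so library numbers are those of the columns and pair nothing. The labels do not tie each library to an animal of its own; a p-value here reflects spread among libraries, which may be technical.

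Each comparison was fitted over all genes with limma 3.58.1 in R 4.3.3 (trend and robust) on log2(value + 1), which understates changes of low genes such as Mvd, for genes whose value reached 1 in a number of libraries equal to the smaller group. P-values were adjusted by Benjamini-Hochberg, with a threshold of 0.05. Alternatives were other pseudocounts, no filter, total reads, TMM, edgeR 4.0.16 and DESeq2 1.42.0 on recovered reads, all 5 groups in 1 fit, the stretch as a covariate or alone, and leaving out each library. Scripts were tested on simulated data. The 7 genes, the lists, the markers and the division into stretches were chosen with earlier results of these data known. All 7 members were described in each comparison; from each list, up to 3 genes with the smallest adjusted p among those past the threshold over all libraries or in stretch 3 were named, and the 5 other genes most like the members. Srebf2, the listed genes named for stretch 1, and Sc4mol beside those 5 were chosen after their values were seen. Msmo1 is listed as Sc4mol. Annotation was GENCODE vM21, and lengths are unions of its exons. Promoter windows were from RefSeq.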

Additional observations from a re-analysis of the deposited data

Results flagged for a closer look

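In the 9-month D2-Gpnmb+ group, library 4 stood far above the other 8 for Hmgcs1, at 67.9 against 47.9 for the next highest. The same library stood far above the others for Fdft1, at 49.9 against 32.5. These were 2 of 28 groups of 4 to 10 libraries tested for a far value, and chance flags about 1 in 20.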

How the results depend on the processing

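Of the settings that gave a fold change for single members, 511 kept direction and side of the threshold, 11 newly passed, 12 lost the call and 12 changed sign. The number of members past the threshold moved as follows. For nicotinamide it went from 3 to 2 with total reads, to 0 with the stretch as a covariate and to 0 within stretch 3; leaving out 1 library gave 2 to 3 over all libraries and 0 to 2 within stretch 3. For age in DBA/2J it went from 2 to 3 with all 5 groups in 1 fit (Insig1), to 1 with total reads, to 0 with the covariate and to 0 within stretch 3; leaving out 1 library gave 1 to 3 and 0 to 0. For strain at 9 months it went from 0 to 2 with all 5 groups in 1 fit (Mvd and Sqle) and to 2 within stretch 1, where leaving out 1 library, chosen after seeing the data, gave 1 to 3. For age in D2-Gpnmb+ it went from 0 to 2 with DESeq2 and 0 to 1 leaving out 1 library. For the interaction it went from 0 to 1 with total reads. For nicotinamide against D2-Gpnmb+ it went from 0 to 1 with edgeR, 1 with DESeq2 and 1 with all 5 groups, and 0 to 1 leaving out 1 library, pooled or within stretch 3. For strain at 4 months and nicotinamide against 4 months it stayed at 0 in all settings run. The cause was not tested.

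Signs changed for strain at 9 months within stretch 2 (Idi1 0.57, Sqle 0.29, Insig1 0.077) and for age in D2-Gpnmb+ with the covariate or within stretch 3 (Fdft1 -0.012). They changed for nicotinamide against D2-Gpnmb+ (Idi1 -0.022 with total reads, -0.066 with edgeR and -0.052 with DESeq2; Insig1 -0.068 and -0.049) and against 4 months (Mvd -0.078 with edgeR and -0.078 with DESeq2). With total reads the all-gene median was -0.13 for strain at 9 months and 0.31 for age in D2-Gpnmb+, and with edgeR -0.12 for nicotinamide.

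Counts over all genes depended on the tool. For nicotinamide 1362 higher and 743 lower became 1031 and 1244 with edgeR, 1186 and 1752 with DESeq2, 1269 and 346 with total reads, and 0 with the covariate. For age in DBA/2J 1257 and 1787 became 1712 and 1448, 2192 and 1517 with edgeR and DESeq2, and 8 genes with the covariate. DESeq2 called 255 genes for strain at 9 months, 204 at 4 months, 2114 for age in D2-Gpnmb+, 284 for the interaction and 499 for nicotinamide against 4 months, where limma called 3, 32, 3, 53 and 200; edgeR called 11, 36, 1495, 42 and 207. All 5 groups in 1 fit called 680, 2, 1685, 145 and 0. Total reads called 0 for strain at 9 months, 20 at 4 months, 0 for age in D2-Gpnmb+ and 215 for the interaction, and the covariate 2, 0 and 12 for strain at 9 months, age in D2-Gpnmb+ and the interaction. For nicotinamide against D2-Gpnmb+ the 0 of limma became 1680 with all 5 groups, 2 with total reads and 1 with the covariate. For age in D2-Gpnmb+ a pseudocount of 2 called 2. Depth limits Mvd most, since the lowest library holds only 4 of its reads. No paired analysis was possible because the labels give no replicate number to more than 1 group, and nothing ties the running numbers of the table's columns to animals or batches.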

Other observations

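Among the 9-month D2-Gpnmb+ libraries, library 8 had an Xist level of 7.93, while the next lowest of all 61 libraries had 4077.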
